A study of Mus musculus with 2 samples.

Results

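The endothelial connexins Gja1, Gja4, Gja5 and Gjc1 were followed in single endothelial cells of the mouse retina at postnatal day 6 (P6) and day 15 (P15). The 4 genes were taken by symbol through their Ensembl identifiers, and all 4 had a row in both libraries, of 22687 named genes with a row at P6 and 21736 at P15. The cells were wild-type C57BL/6 retinal cells sorted as CD31+CD45-, and 1 droplet library was made per age from an unstated number of animals. Cell cycle state along the arterial and venous continuum was the question behind the 2 libraries. With 1 library per age no difference was tested, and age cannot be told apart from the library. All intervals are 95% intervals that cover counting error only.

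Connexins are the subunits of gap junctions. They assemble in a ring in the membrane of one cell, and the ring docks with that of a neighbouring cell to form a channel that passes ions and small molecules. In blood vessels such channels couple endothelial cells to each other and to the mural cells around them, and they carry electrical signals along arterioles. Gja1 encodes Cx43, which is widely expressed. Gja4 encodes Cx37 and Gja5 encodes Cx40, both known from arterial endothelium and both downstream of Notch and blood flow. Gjc1 encodes Cx45, which is needed for early vessel and heart development and is known from mural cells. Cx37 is also known as a link between flow-activated Notch and arrest of the endothelial cell cycle.

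On GRCm38 with GENCODE M21, Gja1 (ENSMUSG00000050953.10) lies on the plus strand of chromosome 10, from 56377330 to 56402513. Gja4 (ENSMUSG00000050234.7) is on the minus strand of chromosome 4, Gja5 (ENSMUSG00000057123.14) spans 96904693 to 97077416 on the plus strand of chromosome 3, and Gjc1 (ENSMUSG00000034520.14) spans 102799579 to 102819700 on the minus strand of chromosome 11. Each has its whole coding sequence in 1 exon, of 1146 bases in Gja1, 999 in Gja4, 1074 in Gja5 and 1188 in Gjc1. No other gene overlapped Gja1, Gja4 or Gjc1. The Gja5 span held 4 genes on the opposite strand, and the strand setting of the counting is not given in the sources used here.

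The stretches just before the starts of Gja4 and Gja5, the 2 members that were high in arterial cells, are shown beside that of Gja1, the member found in the most cells. They are the 250 bases before the RefSeq start (GRCm38.p6), read 5′ to 3′ on the strand of the gene. Gja5 has 3 annotated transcripts, and its window lies inside the span given above, so it precedes an inner start of the gene. Gjc1 had no entry among the promoters used. Capitals mark matches on either strand to any of 4 motifs. These are CACCC, a core that KLF factors bind, the SOX core ACAAT, the core TGGGAA of RBPJ, which is the partner of Notch on DNA, and the TATA box TATAAA.
Gja4, chr4:127314040-127314289, minus strand: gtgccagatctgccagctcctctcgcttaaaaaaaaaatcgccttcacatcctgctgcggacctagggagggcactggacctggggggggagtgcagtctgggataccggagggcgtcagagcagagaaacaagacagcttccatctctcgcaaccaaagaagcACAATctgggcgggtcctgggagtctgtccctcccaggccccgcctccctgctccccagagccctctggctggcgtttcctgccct
Gja5, chr3:97032152-97032401, plus strand: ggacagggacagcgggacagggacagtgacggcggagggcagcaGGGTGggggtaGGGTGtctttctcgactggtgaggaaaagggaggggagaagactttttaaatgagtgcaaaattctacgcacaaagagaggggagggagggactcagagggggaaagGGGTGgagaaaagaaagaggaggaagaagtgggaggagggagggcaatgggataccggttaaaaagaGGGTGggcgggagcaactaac
Gja1, chr10:56377050-56377299, plus strand: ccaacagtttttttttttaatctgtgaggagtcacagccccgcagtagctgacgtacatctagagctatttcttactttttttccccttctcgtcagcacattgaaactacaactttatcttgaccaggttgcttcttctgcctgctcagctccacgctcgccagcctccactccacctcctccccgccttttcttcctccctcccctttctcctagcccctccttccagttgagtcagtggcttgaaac
CACCC occurred 4 times before Gja5 and not in the other 2 windows. ACAAT occurred once, before Gja4. The RBPJ core and the TATA box were found in none of the 3. Of 32851 promoters of this length, 52.0% held at least 1 match to the KLF core and 27.7% to the SOX core. The shares were 21.6% for the RBPJ core and 12.4% for the TATA box. The median number of KLF core matches was 1, and the share of promoters with 4 was not computed. The ETS core GGAA, left in lower case, occurred 2 times before Gja4 and 3 times before each of Gja5 and Gja1, and 93.45% of all promoters held it. A match describes the letters only.

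The P6 library held 13958124 UMIs (unique molecular identifiers, each a counted RNA molecule) in 1984 barcodes, and the P15 library held 11589641 in 2141. A published cluster was available for 1560 P6 and 438 P15 cells, called labelled cells here, and the P15 labels are a part of that library's. The median depth of labelled cells was 5363.5 UMIs at P6 and 4355.5 at P15. All 10 endothelial markers, among them Pecam1, Cdh5 and Cldn5, were detected in labelled cells of both ages, and together they made up 10227 and 16346 CPM, that is, UMIs of the genes per 1000000 UMIs of the cells. The 12 markers of pericytes and smooth muscle summed to 10.7 CPM in P6 labelled cells, where Cspg4 was at 0. In P15 labelled cells they summed to 228 CPM, with Tagln and Des at 0 and Rgs5 holding 366 of the 489 UMIs. The 2 libraries shared 7 barcode sequences. The RNA of other cells was gauged in 61 P6 barcodes outside the labelled set that were led by retinal neuron markers. In these, Gja1 and Gja4 each gave 7 UMIs in 7 barcodes (11.5%, 13 CPM, interval 5.22 to 26.7, median depth 4499), and Gja5 gave 0 of 61, which allows a share of up to 4.92%. Gjc1 gave 14 UMIs in 9 of these barcodes, 25.9 CPM (14.2 to 43.6). Levels within these ranges are not read as expression. For Gjc1 they take in all P15 labelled cells together, at 40.2 CPM, and the P6 Primitive and Tip cells, so its levels and ratios in endothelial cells are given as values only. Gjc1 in these barcodes stood at 0.557 times its level in P6 labelled cells (0.302 to 0.945), against 0.0448 for Gja1 and 0.0481 for Gja4. A barcode held up to 3 Gjc1 UMIs, against at most 1 of Gja1 or Gja4. The source of the Gjc1 RNA in these barcodes was not tested, and the range was taken from P6 only. They therefore cannot show whether Gjc1 in labelled cells lies at a background level.

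Over all labelled P6 cells, Gja1 was the member found in the most cells. It had 2795 UMIs in 1065 of 1560 cells (68.3%), a level of 289.9 CPM. Gja4 had a like total, 2600 UMIs and 269.6 CPM, in 421 cells (27.0%). Gjc1 had 449 UMIs (46.6 CPM) in 359 cells, mostly as single UMIs. Gja5 was rare, with 54 UMIs (5.60 CPM) in 29 cells (1.86%). The total of Gja1 was therefore spread over many cells with at most 13 UMIs each, and that of Gja4 was gathered in fewer cells with up to 60.

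The level of each connexin was next set out by published cluster. The clusters were built on all genes and the arterial ones were named partly from Gja4 and Gja5, so these levels describe the annotation and are no test of it. At P6, Gja4 stood at 1913 CPM in Arterial cells (interval 1725 to 2116) and at 1859 in Cap-Arterial cells (1767 to 1954). Their intervals overlapped. The next levels were 163 in Tip (140 to 188) and 161 in Capillary (128 to 199), which also overlapped. Venous cells followed with 105, Stalk with 81.2, Cap-Venous with 60.1, Proliferative with 43.6 and Primitive with 26.5 (17.2 to 39.2), the last within the range of the neuron-marker barcodes. One Tip cell held 60 of the 182 Tip UMIs, and without it Tip stood at 110. Gja4 was detected in 39 of 40 Arterial cells (97.5%) and 139 of 162 Cap-Arterial cells (85.8%), against 8.39% to 23.8% in the other 7 clusters.

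Gja5 was found in fewer clusters. Of its 54 UMIs in P6 labelled cells, 35 were in Arterial cells (177 CPM, interval 123 to 246) and 15 in Cap-Arterial cells (17.9, interval 10.0 to 29.6). The other 4 UMIs lay in the Proliferative, Stalk, Cap-Venous and Capillary clusters, and Primitive, Tip and Venous cells had none. Gja5 was detected in 18 of 40 Arterial cells (45.0%) and in 7 of 162 Cap-Arterial cells (4.32%). The Cap-Arterial share lies under the 4.92% that the neuron-marker barcodes allow, and the Cap-Arterial level lies above their upper limit of 6.84 CPM. The 5 Cap-Arterial cells with the most Gja5 held 86.7% of that cluster's Gja5 UMIs.

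Gja1 followed another order. Its highest P6 level was in Capillary cells, 449 CPM (394 to 511), followed by Venous with 390 (321 to 470), Cap-Arterial with 352 (313 to 394) and Tip with 349 (316 to 386). The interval of each of these clusters overlapped that of the next. Stalk and Cap-Venous cells stood at 288, Proliferative at 256, Arterial at 172 (119 to 240) and Primitive at 138 (115 to 164). Arterial cells thus had the next to lowest level, and the share of Arterial cells with Gja1 was 16 of 40 against 88.1% of Venous cells. Gjc1 ran from 18.1 CPM in Primitive cells (10.5 to 28.9) to 82.2 in Capillary cells (59.5 to 111). Its intervals overlapped that of the neuron-marker barcodes in every P6 cluster except Capillary and Proliferative (47.5 to 71.3). At P15 the highest Gja1 level was in Cap-Arterial cells, 268 CPM (212 to 333), followed by Capillary with 246 (161 to 360), Tip with 239 (186 to 303) and Stalk with 202 (160 to 252), each overlapping the next. Arterial cells stood at 102 at P15 (33.1 to 238, 5 UMIs).

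**Figure D1:**
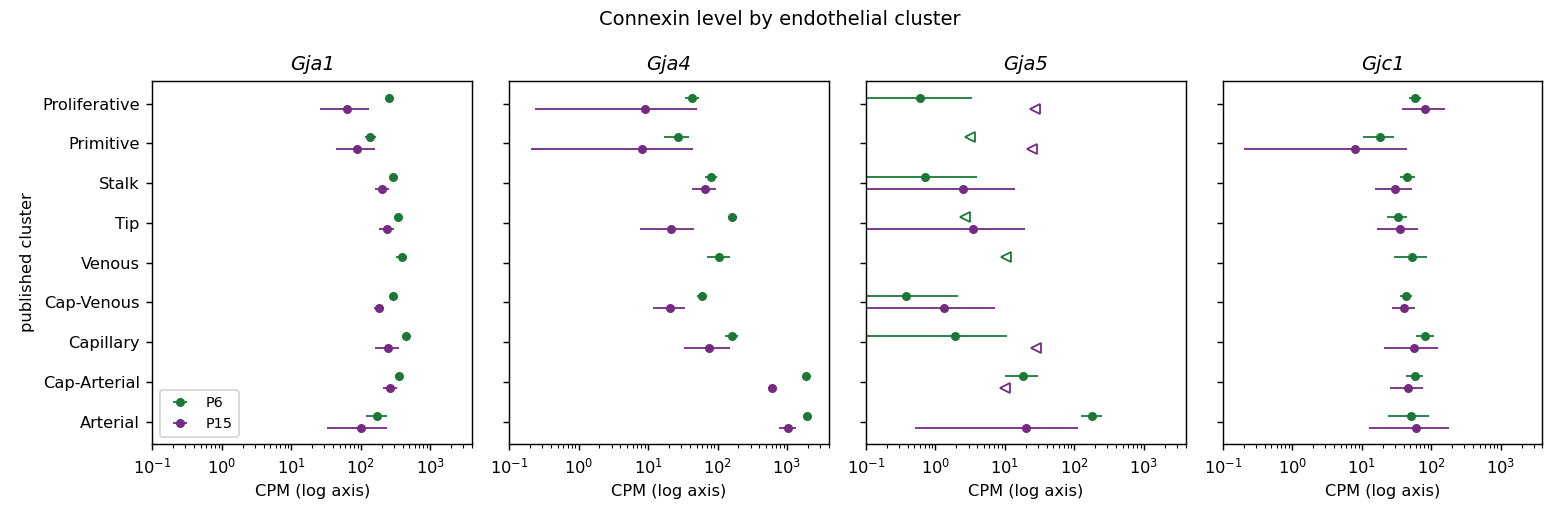
CPM (log axis) of each connexin in the 9 published clusters at P6 (green) and P15 (purple). Points are levels, lines are 95% Poisson intervals cut off at the axis limits, open triangles mark the level that 3 UMIs would give where none was counted, and clusters under 10 cells are left out. At P6, Gja4 is at 1859 and 1913 in the arterial clusters, Gja5 is at 177 in Arterial cells, and Gja1 and Gjc1 are highest in Capillary cells, at 449 and 82.2. At P15, Gja1 is highest in Cap-Arterial cells, at 268, with an interval that overlaps the next.

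The arterial side, the Cap-Arterial and Arterial cells in 1 group, was compared with all other labelled cells. At P6, Gja4 was 24.1 times as high on the arterial side (22.1 to 26.3, 1932 UMIs against 668) and Gja5 was 104 times as high (38.2 to 397, 50 UMIs against 4). Gja1 differed by 1.11 times (0.984 to 1.24) and Gjc1 by 1.26 times (0.941 to 1.66), and both intervals include 1. Of the 4 members, 2 passed a ratio of 2 or more, as did 8.36% of the genes with at least 20 UMIs. At P15, Gja4 was 20.4 times as high (15.3 to 27.6), Gja1 1.31 times (1.02 to 1.67) and Gjc1 1.25 times (0.691 to 2.15). Gja5 had only 1 UMI on the arterial side and 3 elsewhere among the labelled P15 cells, so no ratio is given. There, 1 of the 3 members with at least 20 UMIs passed 2, and 5.27% of all genes did. The Gja1 ratio at P15 turned to 0.937 without cells holding a UMI of a pericyte or glia marker other than Glul, and to 0.986 with labels predicted without connexins. Marker lists of other cells moved with the arterial side as well. At P6 the glia list summed to 1592 CPM in Cap-Arterial and 1564 in Arterial cells against 118 to 257 in the other clusters, and Glul held 1330 of 1331 and 309 of 309 of these UMIs, with Gfap and Slc1a3 at 0 in both clusters. The retinal neuron list summed to 255 and 1209 CPM against 12.8 to 34.4 elsewhere, and Stmn2 held 196 of 213 and 233 of 239 of its UMIs, with Neurod1 and Tubb3 at 0. At P15 the glia list stood at 2844 and 3443 CPM in these clusters against 429 to 1057 in the other clusters of at least 10 cells. The part of these genes in the connexin ratios was not tested.

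Within the arterial side, the members parted. At P6 Gja5 was 9.87 times as high in Arterial as in Cap-Arterial cells (5.25 to 19.5), Gja4 was 1.03 times as high (0.917 to 1.15), and Gja1 was 0.489 times as high (0.333 to 0.699). Gjc1 had 10 UMIs against 49, a ratio of 0.864 (0.390 to 1.73). The backgrounds were 5.82% of genes at 2 or more and 8.42% at 0.5 or less, and 1 member lay past each. At P15, with 11 Arterial and 68 Cap-Arterial cells, Gja1 was again lower in Arterial cells, at 0.381 times (0.120 to 0.926, 5 UMIs against 81), past 0.5 as were 14.2% of genes. Gja4 was 1.65 times as high in Arterial cells at P15 (1.18 to 2.26), short of the 2 that 7.07% of genes passed.

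Outside the arterial side, Capillary and Cap-Venous cells were also compared. Gja4 was 2.67 times as high in Capillary as in Cap-Venous cells at P6 (2.03 to 3.5), past 2 as were 9.56% of genes, with Gja1 at 1.56 times (1.34 to 1.81).

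As a share of the UMIs of the 4 connexins, Gja4 made up 81.3% in P6 Cap-Arterial cells (79.5% to 83%) and 82.7% in Arterial cells (78.9% to 86.1%). Gja1 made up 15.4% and 7.44% in those clusters, and Gja5 made up 0.785% and 7.66%. In the other 7 P6 clusters Gja1 led with 64.1% to 75.6%, and Gja4 held 12.2% to 29.8%. At P15, Gja4 made up 66.3% in Cap-Arterial and 84.7% in Arterial cells.

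Single cells of the 2 arterial clusters showed the spread behind these sums. P6 Arterial cells held 0 to 29 Gja4 UMIs with a median of 9, and Cap-Arterial cells held 0 to 52 with a median of 6. At P15 the medians were 5 of at most 12 in Arterial cells and 1 of at most 16 in Cap-Arterial cells. Gja5 did not exceed 8 UMIs in any of the 202 P6 arterial-side cells. Of the 25 P6 arterial-side cells with Gja5, 24 also had Gja4 (96.0%, 79.7% to 99.9%). Of the 177 without Gja5, 154 had Gja4 (87.0%, 81.1% to 91.6%), so the shares overlap.

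**Figure D2:**
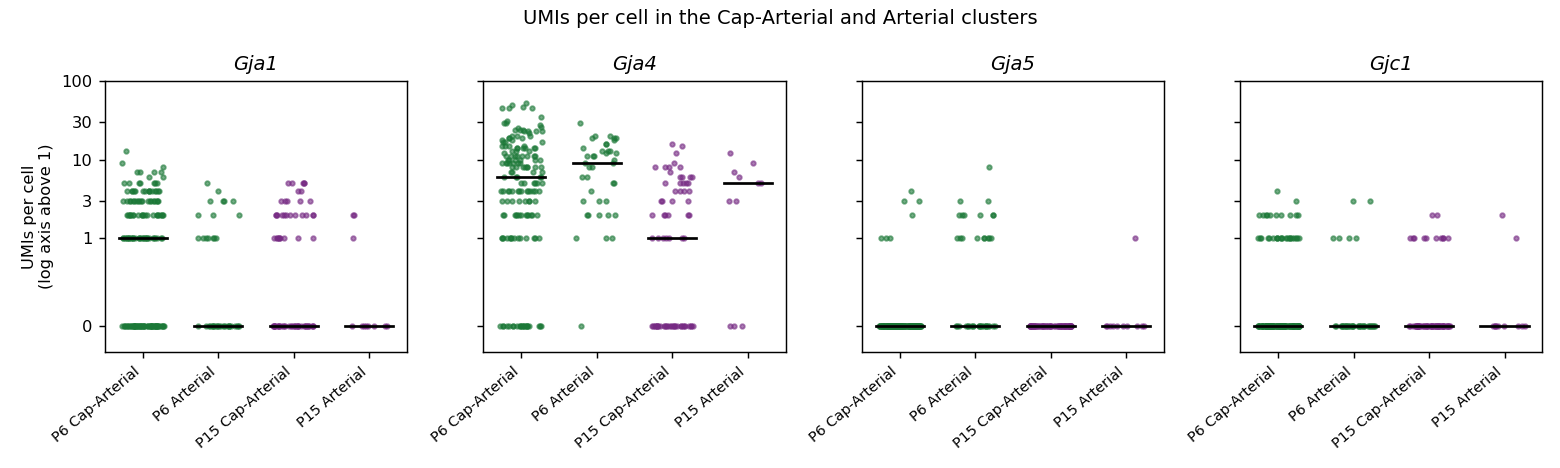
UMIs per cell of the 4 connexins in Cap-Arterial and Arterial cells at P6 (green) and P15 (purple), with the axis logarithmic above 1. Each point is 1 cell, shifted sideways at random, and black lines are medians. The Gja4 medians are 6 and 9 at P6 and 1 and 5 at P15, and the Gja5 median is 0 in all 4 groups.

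Depth raises the chance of finding a gene, so cells were also thinned to 3000 UMIs each, which left 1392 P6 and 321 P15 labelled cells. All 32 thinned P6 Arterial cells had Gja4 and 34.4% had Gja5. At least 2 different connexins were found in 56.2% of thinned P6 Arterial and 51.9% of Cap-Arterial cells, against 3.23% of Primitive, 11.1% of Cap-Venous and 27.5% of Capillary cells. No connexin was found in 65.2% of Primitive cells and in none of the 32 Arterial cells. No thinned cell held all 4.

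Gja4 outside the arterial clusters was low. The 1358 P6 labelled cells there stood at 77.6 CPM (71.8 to 83.7), above the 13 CPM of the neuron-marker barcodes. They held a Gja4 UMI in 243 cells (17.9%, 15.9% to 20.04%, median depth 5483.5), and the 11.5% of neuron-marker barcodes had an interval of 4.74% to 22.2%. The shares overlap, so the cells with a UMI are not read as a class of their own. The UMIs per cell reached further in labelled cells. No neuron-marker barcode held more than 1 Gja4 UMI. Labelled cells with Gja4 here had a median of 1, and the most in a cell was 60 in Tip and 30 in Stalk and in Cap-Venous. Whether cells with many UMIs form a class was not tested.

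A list of 20 genes of arterial Notch signalling, flow response and cell cycle arrest was read in the arterial-side comparison. Of these, 19 had at least 20 UMIs at P6. Of the 19, 8 passed a ratio of 2, as did 8.36% of all genes, and 0 were at 0.5 or less, where 8.91% of all genes were. Their median ratio was 1.92 against 1.06 over all genes. All 8 genes of a list of dividing cells, among them Mki67 and Top2a, were at 0.5 or less, with a median of 0.181. Bmx, an arterial kinase, stood at 77.6 times, the arrest gene Cdkn1c at 16.5 times, the Notch target Hey1 at 14.3 times, the factor Sox17 at 5.25 times, and the flow-responsive factors Klf4 at 5.03 times and Klf2 at 3.90 times. Gja4 therefore lay between Cdkn1c and Bmx in the size of its ratio, and Cdkn1b, which encodes p27, stood at 1.07 times (0.781 to 1.43). At P15, 7 of 18 passed 2, as did 5.27% of all genes. Another 1, Cdkn1b at 0.302 times (0.108 to 0.681, 6 UMIs against 101), was below 0.5, as were 7.96% of all genes. Efnb2, Hey1, Hey2, Sox17, Bmx, Jag1 and Dll4 of this list are also among the arterial genes of the study, so the list is not independent of the clusters.

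Levels at P15 were then compared with those at P6. Among labelled cells, Gja4 stood at 138.3 CPM at P15 against 269.6 at P6, 0.513 times (0.453 to 0.579). Gja1 stood at 195.7 against 289.9, 0.675 times (0.608 to 0.749). Gja5 had 4 UMIs at P15 against 54 at P6, 0.334 times (0.0878 to 0.905), and Gjc1 had 40.2 CPM against 46.6, 0.863 times (0.677 to 1.09). The median ratio over all genes tested was 1.08. Gja5 alone was at 0.5 or less, as were 8.86% of 12255 genes, and the other 3 members lay between 0.5 and 1. Gja4 was also past 0.5 under several settings, at 0.456 in labelled cells that pass a filter read from the study's criteria, 0.469 in thinned cells and 0.461 without mitochondrial and ribosomal protein genes. In the 1644 P15 and 1424 P6 cells that pass this filter, labelled or not, the ratios were 0.507 for Gja4, 0.697 for Gja1, 0.399 for Gja5 (20 UMIs against 52, at 0.5 or less with 7.06% of genes) and 0.780 for Gjc1 (0.665 to 0.912). Over all barcodes, those led by pericyte and smooth muscle markers included, the Gjc1 ratio was 1.15.

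The lower Gja4 level at P15 was present inside the arterial clusters as well. Gja4 in Cap-Arterial cells stood at 618 CPM at P15 (532 to 713) against 1859 at P6, 0.332 times (0.284 to 0.387), where 7.52% of genes were at 0.5 or less. In Arterial cells it stood at 1019 against 1913, 0.533 times (0.388 to 0.717). Tip cells differed the most, with 6 UMIs at P15 against 182 at P6, 0.130 times (0.0470 to 0.288), or 0.192 times without the 1 cell that held 60. Cap-Venous cells stood at 0.348 times (0.195 to 0.584) and Capillary cells at 0.471 times (0.197 to 0.971). In Stalk cells the ratio was 0.810 and its interval, 0.508 to 1.25, included 1. Several P15 levels outside the arterial clusters, such as 20.95 CPM in Cap-Venous and 21.1 in Tip cells, lay within the range of the P6 neuron-marker barcodes.

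Gja1 was lower at P15 in each of the 8 clusters with at least 10 cells at both ages, from 0.251 times in Proliferative cells (0.1 to 0.522, 7 UMIs against 428) to 0.761 times in Cap-Arterial cells (0.587 to 0.976). The intervals in Primitive and Arterial cells included 1, and the Stalk ratio of 0.702 turned to 1.14 without cells holding a pericyte or glia marker, Glul included. For Gjc1 the interval included 1 in all 8 clusters. Gja5 in Arterial cells had 1 UMI at P15 against 35 at P6, 0.115 times (0.0028 to 0.684), and in Cap-Arterial cells 0 against 15, at least 1.81-fold lower with 3 UMIs as the floor for the P15 cluster.

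The genes of the arterial list lay on both sides of 1. In P15 labelled cells Klf2 stood at 3.41 times its P6 level (3.27 to 3.55), Klf4 at 3.04 times, Cdkn1c at 3.01 times and Sox17 at 2.13 times, whereas Sox18 was at 0.253 times (0.222 to 0.288) and Jag1 at 0.733 times (0.647 to 0.829). Of 19 list genes with at least 20 UMIs, 4 were at 2 or more, where 8.79% of all genes were, and 1 was at 0.5 or less, where 8.86% were. Inside Cap-Arterial cells, Klf2 was at 2.04 times and Hey1 at 0.980 times (0.707 to 1.34). The pericyte and smooth muscle markers also differed with age, from 2.12 to 17.1 CPM over the P6 clusters to 40.8 to 454 over the P15 clusters of at least 10 cells. In labelled cells the glia list, nearly all of it Glul, stood at 337.6 CPM at P6 and 1128 at P15, the retinal neuron list at 63.4 and 103, and the red blood cell list at 9.13 and 63.1. The part of these lists in the connexin ratios was not tested, and without cells holding a pericyte, smooth muscle or glia marker other than Glul the Gja4 ratio was 0.628 (168 UMIs against 2435).

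**Figure D3:**
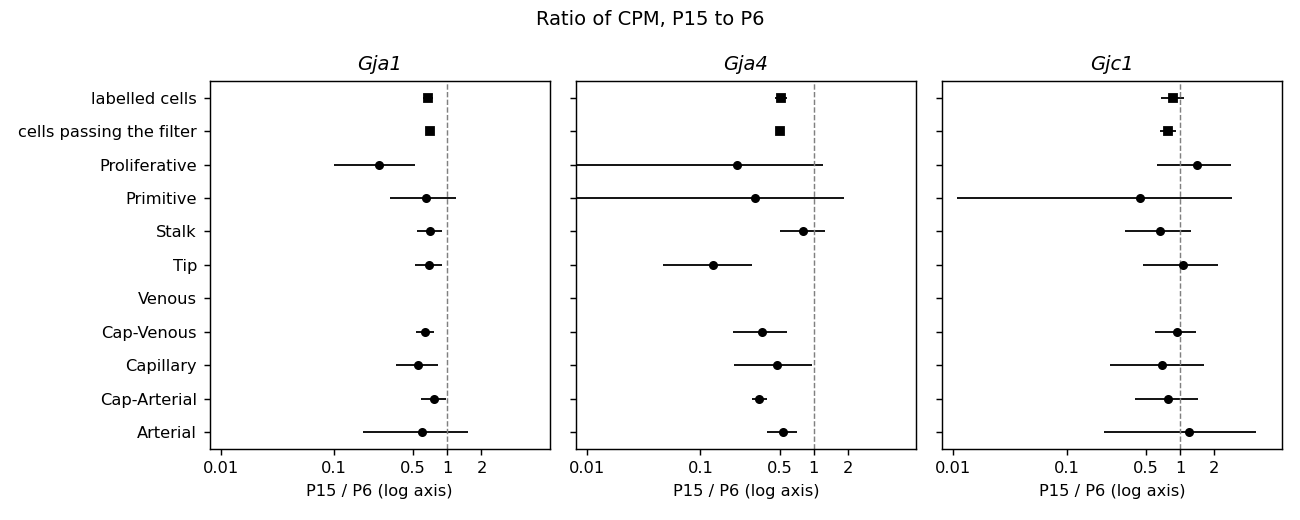
Ratio of CPM at P15 to P6 (log axis) for Gja1, Gja4 and Gjc1, over labelled cells and cells passing the filter (squares) and within clusters of at least 10 cells at both ages (circles). Lines are 95% counting intervals, cut off at the axis limits, and the dashed line is a ratio of 1. The Gja4 intervals lie below 1 in Tip, Cap-Venous, Capillary, Cap-Arterial and Arterial cells, and those of Gjc1 cross 1 in every cluster.

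Because most P15 cells carried no label here, all cells passing the filter were ordered by an arterial minus venous score and split into 10 equal bins. The score used 16 arterial and 13 venous genes of the study with no connexin among them. It was scaled, and the bins were cut, within each library. A bin is thus a rank within its age, and bins of the same number are not matched sets of cells. At P6, Gja4 lay between 43.1 and 98.2 CPM in the 6 most venous bins, at 180 and 187 in the next 2, at 368 in bin 9 and at 2274 in bin 10 (2159 to 2393). At P15 it stood at 10.6 in bin 1, 152 in bin 8, 340 in bin 9 and 994 in bin 10 (918 to 1075). The most arterial bin held 63.5% of all Gja4 UMIs at P6 and 54.8% at P15. The P15 to P6 ratio was 0.246 to 0.507 in bins 1 to 5 and bin 7, each with an interval below 1, and 0.437 in bin 10 (0.398 to 0.481). The P15 levels in bins 1 to 4, from 10.6 to 21.7 CPM, lay within the range of the P6 neuron-marker barcodes. The ratio was 0.738 in bin 6, 0.812 in bin 8 and 0.926 in bin 9, with intervals that included 1. Cap-Arterial and Arterial cells were 13 of 140 labelled cells in bin 8 at P6 and 11 of 40 at P15. In bin 9 they were 33 of 138 at P6 and 18 of 41 at P15. The part of this difference in the ratios was not tested. In cells thinned before scoring the P15 to P6 ratio of Gja4 was 1.63 in bin 8 (1.14 to 2.35), 0.510 in bin 9 (0.385 to 0.670) and 0.422 in bin 10 (0.368 to 0.482).

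Gja5 was found almost only in the last bin. At P6 it had 48 of its 52 UMIs there, in 24 of 142 cells (73.7 CPM, 54.4 to 97.8). At P15 it had 15 of 20 UMIs there, in 7 of 164 cells (23.9 CPM, 13.4 to 39.4). The P15 level in bin 10 was 0.324 times that at P6 (0.169 to 0.589). The highest Gja5 count of a cell in bin 10 was 6 at P15 and 8 at P6. Labelled P15 cells had Gja5 in 4 of 438 cells (1.87 CPM, 0.509 to 4.79). All P15 cells passing the filter had it in 12 of 1644 (2.71 CPM, 1.66 to 4.19), so the levels overlap. With labels predicted from the other genes, 33 P15 cells were called Arterial, and these had 14 Gja5 UMIs in 6 cells (100 CPM), against 29 UMIs in 14 of 31 cells so called at P6, 0.529 times (0.259 to 1.03). Of these UMIs, a single cell held up to 6 at P15 and up to 8 at P6.

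Gja1 ran differently along the score at the 2 ages. At P6 it was highest in bins 9 and 10, with 396 and 416 CPM, and bin 10 stood at 1.41 times the other cells (1.24 to 1.61). At P15 it was highest in bin 8, with 285 (248 to 327), and bin 10 had 182 (150 to 218), 0.844 times the other cells (0.691 to 1.02). Gjc1 had no order along the score, with bin 10 at 0.938 times the other cells at P6 (0.623 to 1.36) and 1.05 times at P15 (0.667 to 1.59). The median depth was 4226.5 UMIs in bin 10 at P6 and 3582.5 at P15, and the pericyte and smooth muscle markers summed to 12.3 CPM there at P6 and 503.5 at P15. Their part in these values was not tested.

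**Figure D4:**
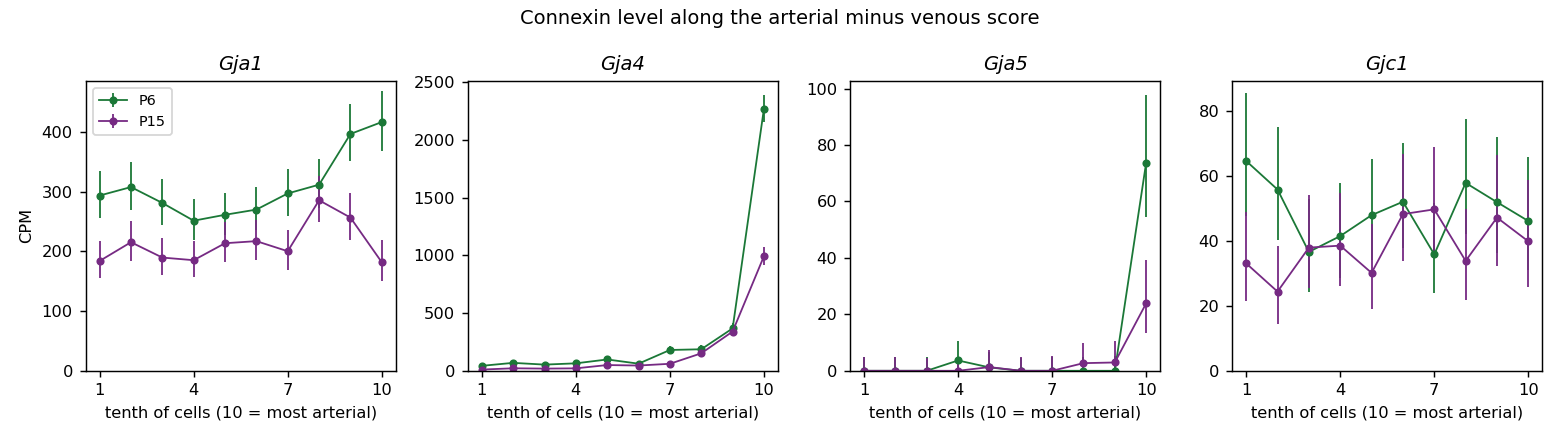
CPM of each connexin in 10 equal bins of cells ordered from the most venous (1) to the most arterial (10) score at P6 (green) and P15 (purple), with 95% Poisson intervals and a separate linear axis from 0 in each panel. Gja4 and Gja5 are highest in the last bin at both ages, at 2274 and 73.7 at P6 and at 994 and 23.9 at P15, and Gja1 stands at 416 there at P6 and at 182 at P15.

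Likeness of pattern was measured as Pearson's r of log2(CPM + 1) over the 9 P6 clusters, among 5871 genes with at least 200 UMIs. Gja4 and Gja5 had an r of 0.88 with each other, and Gja1 had 0.12 with Gja4, -0.26 with Gja5 and 0.68 with Gjc1. Over 8 P15 clusters these were 0.48, 0.33, -0.04 and 0.06. Gja5 itself did not reach 200 UMIs. It had 54 in P6 labelled cells, 35 of them in Arterial cells, and 4 at P15. Every r with Gja5 therefore rests on few UMIs, and at P15 on single ones. The genes most like Gja4 were Nedd9 (r = 0.98), Unc5b, a netrin receptor (0.98), and Efna1, an ephrin ligand (0.97), and over the P15 clusters their r was 0.73, 0.88 and 0.54. Those most like Gja5 were Tm4sf1, Emp3 and Lamp1 (each 0.98 at P6, and 0.69, 0.48 and 0.71 at P15). For Gja1 they were Itga1, an integrin chain (0.98), Dlc1 (0.98) and Taok2 (0.98), with 0.65, 0.78 and 0.66 at P15. For Gjc1 they were Btbd7 (0.96), Usp34 (0.95) and Cnot1 (0.95), and at P15 these had 0.31, -0.44 and -0.38. The clusters of an age share 1 library, and 62 to 97 genes passed an r of 0.9 with each member, so these names are a description.

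Of the 23 connexin and pannexin genes in the family list, 10 had a row at P6 and 9 at P15. Beside the 4 members, Panx1, which forms single-membrane channels, had 87 UMIs in P6 labelled cells (9.02 CPM) and 6 at P15 (2.80 CPM). Gjd2 had 2, Gjd4 1 and Panx3 1 at P6, and Gje1 had 0 in labelled cells. At P15, Gjd2 and Gja6 were at 0 in labelled cells, which allows 0.685% of 438 cells to hold a UMI. A gene without a row was not read as 0.

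Gja4 and Gjc1 were higher in barcodes of another kind than in the labelled cells of P15 as a whole. The P15 library held 68 barcodes outside the labelled set in which pericyte and smooth muscle markers led. Gja4 there had 232 UMIs in 56 barcodes (82.4%), 767 CPM (672 to 872), 5.55 times its level in all P15 labelled endothelial cells (4.65 to 6.61). P15 Arterial cells stood at 1019 CPM (756 to 1343), an interval that overlaps it, and Cap-Arterial cells at 618. Gjc1 had 158 UMIs in 54 barcodes, 522 CPM (444 to 611), 13 times the endothelial level (9.94 to 17.1). Gja1 was lower than in endothelial cells, at 36.4 CPM or 0.186 times (0.0921 to 0.336), and Gja5 had 2 UMIs. Endothelial markers summed to 3879 CPM in these barcodes against 16346 in labelled cells. Gja4 stood at 786 CPM in the 23 that held the smooth muscle gene Acta2 and at 755 in the 45 that did not, and Gjc1 at 355 (256 to 480) and 630 (521 to 756).

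**Figure D5:**
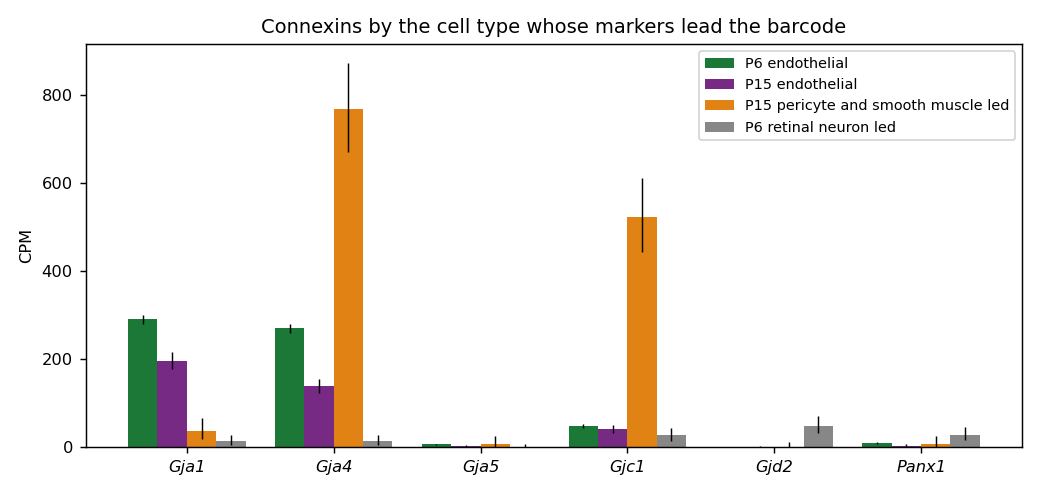
CPM of the 4 connexins, Gjd2 and Panx1 in labelled endothelial cells of P6 and P15, in 68 P15 barcodes led by pericyte and smooth muscle markers and in 61 P6 barcodes led by retinal neuron markers, with 95% Poisson intervals. Of these 4 sets, Gja4 and Gjc1 are highest in the pericyte and smooth muscle barcodes, at 767 and 522, and Gja1 is highest in P6 endothelial cells, at 289.9.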

How the data were processed

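Counts of UMIs per gene and cell were deposited for 1 library per age. The authors sorted CD31+CD45- retinal cells, loaded about 12000 cells per sample on the 10x Genomics platform per the labels, and used Seurat 3.0 with the mm10 build per the submitters' processing notes. The aligner is not given in the sources used here. The files held 1984 (P6) and 2141 (P15) barcodes. Gene identifiers matched GENCODE M21. Cluster names came from the study's source data, of which only part of the P15 rows was used here. The filter, read from the exclusion criteria that the study states, kept cells with 200 to 3500 genes, at most 5% mitochondrial UMIs and no Hbb-bt, Neurod1 or Cd63 UMI. It left 1424 and 1644 cells. Of the labelled cells, 1399 of 1560 at P6 and 409 of 438 at P15 passed it, so it does not return the study's own set of cells. No doublet caller was run. Levels are CPM, summed UMIs of a gene per 1000000 UMIs of the cells, with exact Poisson intervals, shares have Clopper-Pearson intervals, and ratios have exact conditional binomial intervals, all at 95% and for counting error only. Thinning drew 3000 UMIs per cell and left out shallower cells (168 at P6, 117 at P15). Background shares are over genes with at least 20 UMIs. Barcodes led by a marker list were unlabelled, held at least 3 of its genes, and had more UMIs of it than of endothelial markers and no fewer than of any other list. Labels were predicted from 15 nearest neighbours on 13 principal components of 3000 genes without the connexin and pannexin list, and 65.9% of P6 and 68.7% of P15 labelled cells received their own label. The score was the mean z, taken within each library, of ln(1 + UMIs per 10000) over the arterial genes minus that over the venous genes.

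Named genes were the 4 members, the family list, the arterial list of 20 genes, markers that moved with a member, and the 3 genes most like each member. Some genes of the family list are not reported here. The members and lists were chosen with earlier results of these data known. Alternatives covered the cells included, depth, scaling, weights, markers of other cells, doublets, predicted labels and single cells. Ratios and intervals were tested on simulated data. Python 3.11.15 was used with pandas 2.3.3, scipy 1.17.1 and scikit-learn 1.9.0. Cells with UMIs of both Xist and a Y-linked gene were left out as likely doublets in 1 alternative.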

Additional observations from a re-analysis of the deposited data

Results flagged for a closer look

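The 4 values below came from barcodes outside the labelled endothelial cells, which no comparison of clusters used, and each was above the level in labelled cells of its library. Gja4 stood at 767.2 CPM and Gjc1 at 522.5 in the 68 P15 barcodes led by pericyte and smooth muscle markers, against 138.3 and 40.2 in P15 labelled cells. Gja4 stood at 898.7 CPM in the 7 such P6 barcodes (32 UMIs in 6 of them), 3.33 times the level in P6 labelled cells (2.27 to 4.72). P6 Cap-Arterial and Arterial cells stood higher, at 1859 and 1913 CPM. The 3 of these barcodes that held Acta2 gave 26 of the 32 UMIs. Gjd2, which encodes the neuronal connexin Cx36, stood at 48.2 CPM in the 61 P6 barcodes led by retinal neuron markers (26 UMIs in 16 of them), against 2 UMIs in the 1560 labelled cells.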

How the results depend on the processing

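Of 171 recomputed values of the main comparisons, 151 stayed within the counting interval of the reported value and 18 left it. The other 2 crossed 1 where the reported interval excluded 1. Crossings of 1 by a ratio whose reported interval included 1 were counted among the 151 or the 18. The 2 were both the P15 arterial-side ratio of Gja1, 0.937 without cells with a pericyte or glia marker other than Glul (chosen after seeing the data, because Glul was found in 967 of 1560 P6 labelled cells) and 0.986 with predicted labels. With Glul among the markers only 45 P15 and 561 P6 cells were left, and P15 to P6 ratios were 0.874 for Gja1, 0 for Gja5 (0 UMIs against 3) and 0.150 for Gjc1, the P6 arterial-side ratio of Gjc1 was 2.13, the P6 Arterial to Cap-Arterial ratios were 0.215 for Gja1 and 1.38 for Gja4, and the P15 ratio within Stalk cells turned to 1.14 for Gja1. No arterial cells or no UMIs to divide by were left for 15 further ratios. Without that gene in the list the Gja4 ratio of P15 to P6 was 0.628. Over all barcodes, pericyte and smooth muscle ones included, P15 to P6 was 0.700 for Gja4 and 1.15 for Gjc1. Without mitochondrial and ribosomal protein genes Gja1 was at 0.607. The P6 arterial-side ratio of Gja4 was 27.1 in thinned cells, 17.1 with predicted labels and 26.4 without its top cell, and its Arterial to Cap-Arterial ratio was 0.859 with predicted labels. Thinned shares were 100% for Gja4 in P6 Arterial cells, 0% for Gja5 in 8 P15 Arterial cells and 8.33% for Gjc1 in 12 P15 Proliferative cells. Scored after thinning, bin 10 of P6 held 16.4 times the Gja4 level of the other cells. The cause of these shifts was not tested beyond the cell counts given. No paired analysis was possible because each age has 1 library. Only 11 P15 Arterial cells were labelled, and they gave 1 Gja5 UMI.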

Other observations

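Beside Gjd2, the 61 P6 barcodes led by retinal neuron markers held Gje1 at 20.4 CPM (11 UMIs in 11 barcodes), a gene with 0 UMIs in the 1560 labelled cells. Panx1 stood at 27.8 CPM in them (15.6 to 45.9) against 9.02 in P6 labelled cells. In the 7 P6 barcodes led by pericyte and smooth muscle markers, Gjc1 had 11 UMIs, 309 CPM (154 to 553).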
